A study of Rattus norvegicus with 4 samples.

Results

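The nuclear genes of oxidative phosphorylation were followed in INS-1 cells, a rat insulin-secreting tumour line, after forskolin. They were chosen by gene symbol, as those starting with Nduf followed by a, b, c, s or v, with Uqcr, with Cox and a digit from 4 to 8, or with Atp5, together with Sdha, Sdhb, Sdhc and Sdhd. The rule found 101 probe sets for 86 genes among the 18666 genes named on the array, and a gene with several probe sets is represented by the brightest of them on average. Of the 86 genes, 76 encode structural subunits: 35 of complex I, 4 of complex II, 7 of complex III, 15 of complex IV and 15 of complex V. The other 10 match the spelling without being subunits, some of them assembly factors, and are described apart.

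The cells fell into 4 groups, each on 1 array: vehicle (DMSO) for 2 h, forskolin at 10 µM in DMSO for 2 h, vehicle for 16 h and forskolin at 10 µM for 16 h. All cells grew in RPMI with serum, and the line comes from a rat of the NEDH strain. Forskolin activates adenylyl cyclase directly and raises cyclic AMP, and the study asked how gene expression responds to short and to long stimulation of this kind. No group was repeated, so forskolin and vehicle at one time differ by a value that carries no error and no test.

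The respiratory chain passes electrons from NADH through complex I, or from succinate through complex II, to ubiquinone. Complex III then reduces cytochrome c, complex IV hands the electrons to oxygen, and complex V, the ATP synthase, uses the proton gradient built on the way to make ATP. In beta cells a rise in ATP from glucose oxidation closes potassium channels and starts insulin release.

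The values are log2 signals, so a difference of 1 is a 2-fold change. A gene was kept when its signal reached the median of all genes, a log2 signal of 4.848, on at least 1 array, which left 9333 genes and 78 of the 86 members. That level was also reached by 17.8% to 21.3% of the 1153 negative-control probe sets. Pearson correlations between arrays lay between 0.985 and 0.993 over all probe sets. The beta-cell markers Ins1, Ins2, Iapp, Slc2a2 and Chga had signals from 10.88 to 13.32, while Nkx6-1 lay between 3.84 and 5.43 and Mafa between 6.20 and 7.95. The 4 fibroblast and endothelial, 5 exocrine and 4 leukocyte markers that were measured all stayed below the filter, and so did Sst, Ppy and Ghrl. Gcg, the glucagon gene of alpha cells, had signals from 11.76 to 12.56.

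The forskolin differences of the oxidative phosphorylation genes were small. At 2 h the median difference from vehicle over the 78 kept members was 0.02, against -0.10 over all kept genes, and at 16 h it was 0.10 against 0.02. The members were spread less than genes at large, with a standard deviation over genes of 0.24 at 2 h and 0.21 at 16 h, against 0.45 and 0.46. Ribosomal protein genes were spread as little or less, with 0.22 and 0.23 for those of mitochondria and 0.13 and 0.11 for those of the cytosol. The members were also brighter than genes at large, with a median log2 signal of 8.43 against 6.84 on the 2 h vehicle array. No member differed 2-fold, where 3.49% of all kept genes did at 2 h and 4.34% at 16 h.

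Single members past 1.5-fold were few. At 2 h, 1 member was at least 1.5-fold higher, Ndufa5, where 4.67% of all kept genes were, and 2 were at least 1.5-fold lower, Ndufaf1 and Ndufb10, where 8.74% of all kept genes were. At 16 h, 2 members were at least 1.5-fold higher, Ndufs4 and Ndufa3, where 7.67% of all kept genes were, and 0 were lower, where 6.77% of all kept genes were. Members above 0 numbered 45 of 78 at 2 h, against 36.5% of all kept genes, and 54 of 78 at 16 h, against 52.7%. The 2 h count depended on how the arrays were scaled: it was 50 after a further quantile normalization, 52 after cyclic loess and 62 after centring each array on its median. Centring also moved the 2 h median of all genes from -0.10 to 0.01, so the members are best read relative to all genes. On that footing their median stood 0.12 higher at 2 h and 0.08 higher at 16 h as deposited, and from 0.08 to 0.12 and from 0.06 to 0.08 higher under the other scalings. The gap at 2 h was only 0.03 when all genes were taken with no filter, which adds many genes of low signal, and it was 0.10 at 16 h. Standing above the all-gene median of -0.10 at 2 h was not particular to the members. Cytosolic ribosomal protein genes and citrate cycle and pyruvate genes also did, each with a median of 0.00. Mitochondrial ribosomal protein genes (-0.15) and biogenesis regulators (-0.23) stood below it.

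**Figure D1:**
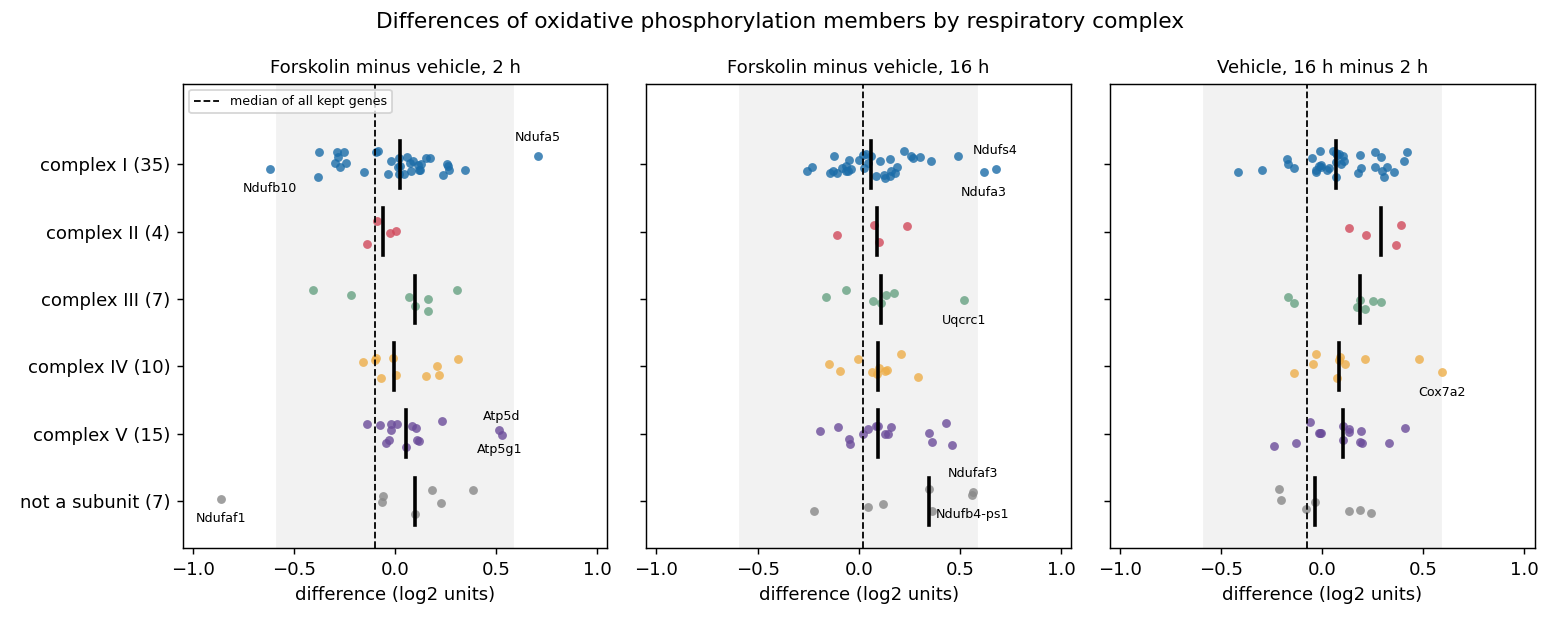
Difference in log2 signal for each kept member, 1 point per gene, by respiratory complex, for forskolin minus vehicle at 2 h, forskolin minus vehicle at 16 h and vehicle at 16 h minus 2 h. Black bars are medians of each complex, the dashed line is the median of all kept genes, and the grey band spans 1.5-fold in either direction, which holds all but 3, 2 and 1 of the 78 members.

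Tests were possible only for treatment over both times and for time over both treatments. They used limma on the 4 arrays with an additive model of treatment and time, which leaves 1 residual degree of freedom, and Benjamini-Hochberg adjustment over the 9333 kept genes. This fit called 93 genes higher with forskolin, 0.996% of all kept genes, and 23 lower, 0.246%, and 0 of the 78 members in either direction. At an unadjusted p below 0.05 it found 6 members, Atp5d, Ndufa5, Atp5g1, Ndufs4, Ndufa3 and Uqcrc1, which is fewer than the 14.1% of all kept genes that reached that level. The smallest adjusted p of a member was 0.0985, for Atp5d. For 56 of the 78 members the 95% interval of the forskolin effect lay within 1.5-fold in either direction, against 34.7% of all kept genes, and for all 78 it lay within 2-fold, against 85.3%. The interval within 1.5-fold was also found for 73 of 74 cytosolic and 38 of 67 mitochondrial ribosomal protein genes. The fit lets the error vary with signal level. Its standard error was 0.08 for the brightest member, Ndufa4, and 0.24 for the dimmest kept one, Atp5l.

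Complex I oxidises NADH and pumps protons, and its 35 measured subunits all passed the filter. Their median forskolin difference was 0.02 at 2 h and 0.06 at 16 h. The 28 accessory subunits, which surround the catalytic core, held the highest and the lowest single differences of any structural subunit, from -0.62 to 0.70 at 2 h and from -0.26 to 0.68 at 16 h.

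Ndufa5, an accessory subunit of the matrix arm, had log2 signals of 8.22 with vehicle and 8.92 with forskolin at 2 h, and 8.62 and 9.11 at 16 h. Both forskolin arrays stood above both vehicle arrays, by 0.70 and 0.49 at the matched times, or 1.63-fold and 1.40-fold. The limma estimate over both times was 0.60 with a standard error of 0.16 and an adjusted p of 0.135.

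Ndufs4, an accessory subunit of the NADH-oxidising end of the complex, had signals of 8.31 and 8.66 at 2 h and of 8.39 and 9.07 at 16 h, vehicle first. Both forskolin signals again exceeded both vehicle signals, with the wider gap at 16 h (1.60-fold, against 1.27-fold at 2 h). Its estimate of 0.51 had an adjusted p of 0.205 in the limma fit.

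Ndufa3, another accessory subunit, had signals of 7.71 and 7.97 at 2 h and of 8.13 and 8.75 at 16 h. Here the treatments overlapped across times, since vehicle at 16 h exceeded forskolin at 2 h. Its forskolin differences were 0.26 and 0.62, with an adjusted p of 0.305 by limma.

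Ndufb10, an accessory subunit of the membrane arm, ran the other way at 2 h only. Its signal was 7.54 with vehicle and 6.93 with forskolin at 2 h, but 7.13 and 7.28 at 16 h. The 2 h vehicle array held the highest of the 4 values, and the difference between the vehicle arrays, -0.42, was the lowest time difference of any kept member. Ndufa12 was lower by a similar amount at both times, with signals of 9.55 and 9.29 at 2 h and 9.62 and 9.37 at 16 h, differences of -0.25 and -0.26 and an adjusted p of 0.462 by limma. Ndufb2 had 9.43 and 9.55 at 2 h and 9.72 and 9.49 at 16 h, so its difference was 0.12 and then -0.23. Ndufs6 had 8.81 and 8.43 at 2 h and 8.51 and 8.37 at 16 h, with the 2 h vehicle array above the other 3. Ndufc2 had 11.19, 11.10, 11.22 and 11.15 in the same order and differed by less than 0.10 at either time.

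The 7 measured core subunits of complex I carry the flavin, the iron-sulphur clusters and the quinone site. Their differences ran from -0.29 to 0.23 at 2 h and from -0.06 to 0.22 at 16 h. Ndufv1, which binds NADH and the flavin, had signals of 10.12 and 10.21 at 2 h and 10.31 and 10.25 at 16 h. Ndufv2 had 7.74 and 7.80, then 7.81 and 7.90. Ndufs1, the large iron-sulphur subunit, had 9.14 and 8.85, then 9.09 and 9.11, and was the one core subunit with a difference below -0.10. Ndufs7, in the quinone-binding part, had 8.10 and 8.23, then 8.09 and 8.31. Ndufs3 had 8.30 and 8.37, then 8.65 and 8.72, so its forskolin differences of 0.07 and 0.06 were smaller than its vehicle time difference of 0.36. Ndufs8 had 7.78 and 8.01, then 8.07 and 8.23. Of the core subunits, 6 of 7 were above 0 at 2 h and 6 of 7 at 16 h, and 0 reached 1.5-fold.

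**Figure D2:**
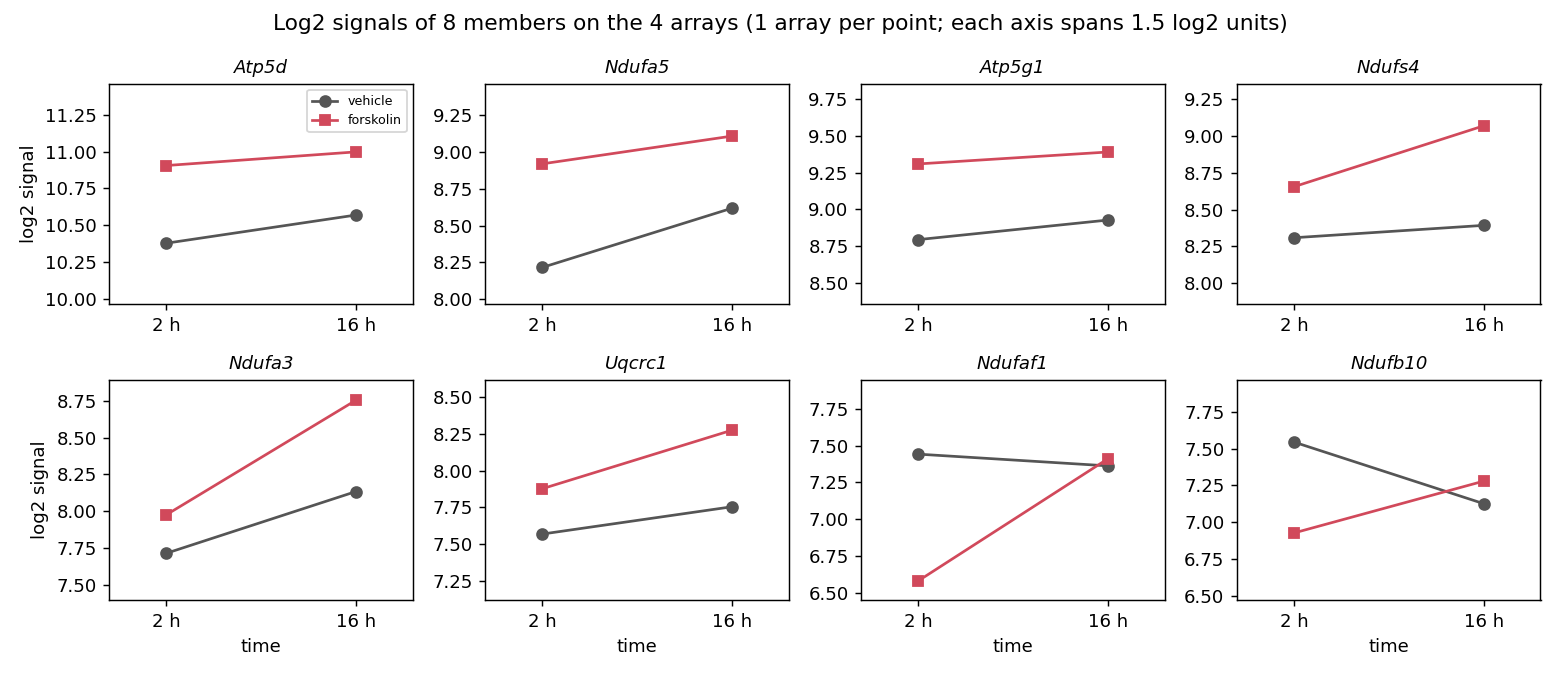
Log2 signal of 8 members on the 4 arrays, vehicle in grey circles and forskolin in red squares, at 2 h and 16 h, with 1 array per point and lines joining arrays of the same treatment. Both forskolin points lie above both vehicle points for Atp5d, Ndufa5, Atp5g1, Ndufs4 and Uqcrc1, while Ndufaf1 and Ndufb10 are lower with forskolin at 2 h and not at 16 h.

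Complex II, which oxidises succinate and also belongs to the citrate cycle, showed no forskolin difference past 0.24 in its 4 subunits. The flavoprotein gene Sdha had signals of 8.90 with vehicle and 8.81 with forskolin at 2 h, and 9.03 and 9.11 at 16 h. The iron-sulphur subunit gene Sdhb had 8.18 and 8.04, then 8.40 and 8.64. For the membrane anchors, Sdhc had 8.34 on both 2 h arrays and 8.73 and 8.83 at 16 h, and Sdhd had 8.09 and 8.06, then 8.45 and 8.34. All 4 were higher on the vehicle array of 16 h than on that of 2 h, by 0.13 to 0.39.

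Complex III, which passes electrons from ubiquinol to cytochrome c, had a median difference of 0.10 at 2 h and 0.11 at 16 h over 7 subunits. Uqcrc1, a core protein of the complex, had signals of 7.57 and 7.88 at 2 h and 7.75 and 8.27 at 16 h, and both forskolin arrays lay above both vehicle arrays. Its limma estimate was 0.41 with an adjusted p of 0.338. The other core protein gene, Uqcrc2, had 9.86 and 9.93, then 10.07 and 9.91. Uqcrfs1, the Rieske iron-sulphur protein, had 7.91 and 8.01, then 8.09 and 8.03. Neither repeated the pattern of Uqcrc1. Uqcrh, the acidic hinge protein, had 8.71 and 8.30 at 2 h and 8.54 and 8.71 at 16 h, so it was lower with forskolin at 2 h by 0.41 and higher at 16 h by 0.17. Uqcrb had 11.00 and 10.78, then 10.86 and 10.99, and like Uqcrh it was lowest on the 2 h forskolin array.

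Complex IV, cytochrome c oxidase, has isoforms that mark tissues. Cox4i1, Cox6a1, Cox7a2 and Cox8a, the forms found in most tissues, were all detected. Cox4i1 had 9.06 and 9.27 at 2 h and 9.27 and 9.37 at 16 h, Cox6a1 had 10.64 and 10.63, then 10.72 and 10.81, and Cox8a had 10.42 and 10.43, then 10.50 and 10.71. The tissue-restricted forms stayed below the filter on every array: Cox4i2, known from lung, at 2.44 to 2.89, Cox6a2 and Cox8b, known from heart and muscle, at 3.32 to 4.02 and 2.25 to 2.72, and Cox6b2 and Cox8c, known from testis, at 2.83 to 3.29 and 2.27 to 2.73. These lie in the range of the negative controls, whose medians were 3.22 to 3.39 and upper quartiles 4.37 to 4.57, and no difference was read from them. Cox7a1 and Ndufa4l2 gave no value under these symbols, and Cox6b1 only under a later one.

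The 10 complex IV subunits that passed the filter had forskolin differences from -0.16 to 0.31 at 2 h and from -0.15 to 0.29 at 16 h. Cox7a2 had 10.50 and 10.81 at 2 h and 11.09 and 11.00 at 16 h, so the 2 h vehicle array was the lowest, and its second probe set had the same order of arrays. Cox7b had 8.23 and 8.45, then 8.71 and 8.84, with both 16 h arrays above both 2 h arrays. Ndufa4, once counted with complex I and now with complex IV, had 12.08 and 12.01, then 12.05 on both 16 h arrays.

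Complex V made the smallest p-value of the set. Atp5d (current symbol Atp5f1d), the delta subunit of the central stalk that links rotor and catalytic head, had signals of 10.38 and 10.91 at 2 h and 10.57 and 11.00 at 16 h. Both forskolin arrays stood above both vehicle arrays, by 0.53 and 0.43 at the matched times, or 1.44-fold and 1.35-fold. The limma estimate was 0.48 with a standard error of 0.11, a 95% interval from 0.23 to 0.73 and an adjusted p of 0.0985. It passed the threshold, with an adjusted p of 0.0433 by limma, when only the third of genes with the highest signals was tested. It passed under no other alternative. Its adjusted p by limma was 0.219 with further quantile normalization, 0.244 with cyclic loess and 0.167 with median centring. It was 0.265 with no filter, and 0.349 when the error was not allowed to vary with signal level.

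The rotor ring is built from subunit c, and 3 genes encode the same mature protein with different import peptides. Atp5g1 (current symbol Atp5mc1) had 8.79 and 9.31 at 2 h and 8.93 and 9.39 at 16 h, with both forskolin arrays above both vehicle arrays, an estimate of 0.49 and an adjusted p of 0.173 by limma. Atp5g2 had 10.29 and 10.39, then 10.42 and 10.44, and Atp5g3 had 9.90 and 9.82, then 9.77 and 10.13. The forskolin differences of the 3 genes were thus 0.51, 0.10 and -0.07 at 2 h and 0.46, 0.02 and 0.36 at 16 h. A second, dimmer probe set of Atp5g2 had the opposite sign at both times, with -0.19 at 2 h and -0.15 at 16 h. Whether the paralogs differed from each other was not tested.

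The remaining subunits of the catalytic head stayed closer to 0. Atp5a1, the alpha subunit, had 11.90 and 11.91, then 11.89 and 11.98. Atp5b, the catalytic beta subunit, had 11.29 and 11.27, then 11.39 and 11.55, and Atp5c1, the gamma subunit, had 6.69 and 6.55, then 6.68 and 6.49. The third subunit of the central stalk, epsilon (Atp5e), had 8.46 and 8.57, then 8.21 and 8.26, with both 16 h arrays below both 2 h arrays. The 4 peripheral stalk genes had differences from -0.05 to 0.06 at 2 h and from -0.04 to 0.35 at 16 h, the highest being Atp5o, and the 3 small membrane subunits from 0.09 to 0.23 and from -0.10 to 0.13.

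**Figure D3:**
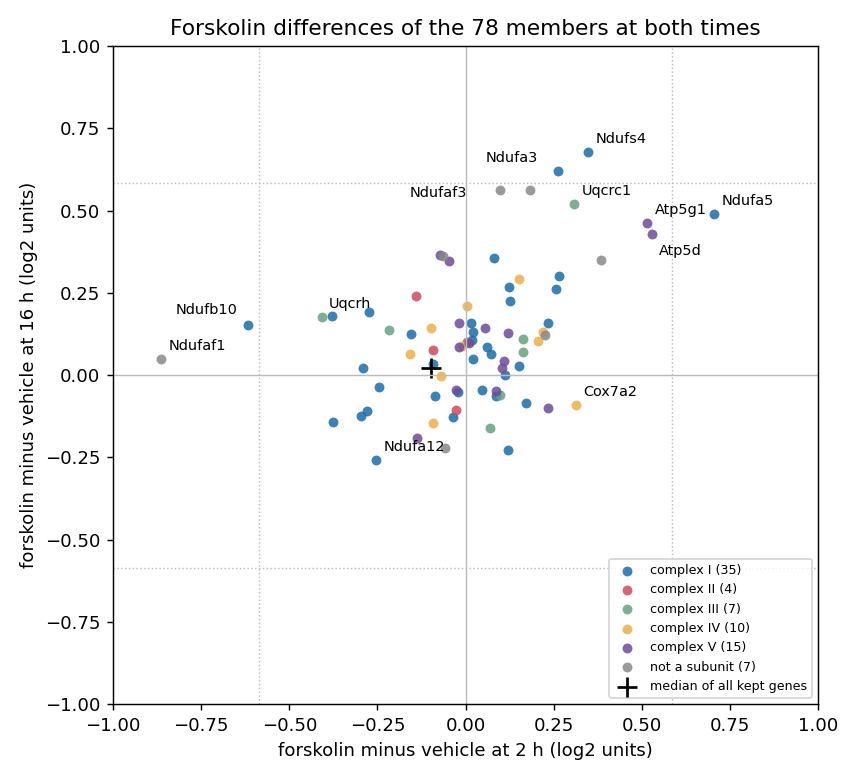
Forskolin minus vehicle in log2 units at 2 h (horizontal axis) and at 16 h (vertical axis) for the 78 kept members, 1 point per gene, coloured by complex, with dotted lines at 1.5-fold and a cross at the median of all kept genes. Atp5d, Atp5g1 and Ndufa5 lie at 0.43 or more on both axes, while Ndufaf1 and Ndufb10 lie far out on the 2 h axis only.

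The 2 times use separate vehicle and forskolin arrays. Of the 78 kept members 35 were above 0 at both, where 24.8% of all kept genes were, and 14 below 0 at both, where 35.5% were. The other 29 had opposite signs, as did 3697 of the 9333 kept genes, a similar share. These counts hold for the values as deposited. Over the scalings 20 of the 78 members changed sign at 2 h and 7 at 16 h. The signs of Atp5d, Ndufa5, Atp5g1, Ndufs4, Ndufa3 and Uqcrc1 held at both times under each scaling, as did the negative sign of Ndufa12. These genes were named from the same data for their differences, so this adds no support for them. Other members, such as Ndufa1, Cox5b and Ndufs6, held their signs too.

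Of the 10 genes that the symbols caught without being subunits, 7 passed the filter. Ndufaf1, an assembly factor of complex I, had the lowest 2 h difference of all members. Its signals were 7.44 with vehicle and 6.58 with forskolin at 2 h, and 7.36 and 7.41 at 16 h, so a single array, forskolin at 2 h, stood apart from the other 3. The difference was -0.86 at 2 h, or 1.82-fold lower, and 0.05 at 16 h. Ndufaf3 had 5.79 and 5.89, then 5.59 and 6.15, and Ndufaf4 had 7.05 and 6.99, then 7.01 and 6.79. Other complex I assembly factors, which the deposited spelling hides, lay on both sides of 0 at 2 h: Ndufaf6 at -0.65, Ndufaf5 at 0.63 and Ndufaf7 at 0.19. Atp5sl (current symbol Dmac2), also an assembly factor of complex I, had differences of -0.06 and 0.36, and Cox7a2l, which helps join complexes III and IV, had 8.27 and 8.50, then 8.46 and 8.58. Cox4nb, now called Emc8 and part of a complex of the endoplasmic reticulum, had 0.38 and 0.35. The pseudogene Ndufb4-ps1 had 0.18 and 0.56, and its probes may also read other Ndufb4 sequences. Ndufaf2, Atp5s and the pseudogene Cox6c1 stayed below the filter.

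Time in culture was compared on the vehicle arrays alone. Between 2 h and 16 h the median over the 78 members was 0.10, against -0.08 over all kept genes, and 51 members were above 0, against 37.1% of all kept genes. The count was 62, 61 and 66 with further quantile normalization, cyclic loess and median centring. The members' median stood 0.14 to 0.17 above that of all genes under every scaling, and 0.09 above it with no filter. Standing above the all-gene median was not particular to the members. Assembly factors outside the symbol rule (0.05), mitochondrial (0.03) and cytosolic (0.02) ribosomal protein genes and citrate cycle and pyruvate genes (0.00) also did, by less. Carriers and uncoupling genes (-0.08) lay at it, and biogenesis regulators (-0.12) below it. Only Cox7a2 was at least 1.5-fold higher (1.51-fold), where 0.761% of all kept genes were, and 0 members were 1.5-fold lower, where 2.35% of all kept genes were. None differed 2-fold, where 0.118% of all kept genes did. The highest differences were those of Cox7a2 (0.59), Cox7b (0.48) and Ndufa3 (0.42), and the lowest those of Ndufb10 (-0.42), Ndufs6 (-0.30) and Atp5e (-0.24). In the limma fit over both treatments, the time term called 0 members and 0 genes in all, 0.0%. At an unadjusted p below 0.05 it found 5 members, Ndufa3, Cox7a2, Cox7b, Sdhc and Sdhb, where 9.99% of all kept genes reached that level, and the smallest adjusted p of a member was 0.43.

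The regulators of mitochondrial biogenesis were read beside the members. Ppargc1a encodes the coactivator PGC-1alpha, known from muscle, fat and liver to raise mitochondrial genes downstream of cyclic AMP. It rose from 5.08 to 7.75 at 2 h and from 4.79 to 7.16 at 16 h, 6.39-fold and 5.15-fold, with a limma estimate of 2.52, a standard error of 0.21 and an adjusted p of 0.0012. It was the only one of the 12 kept biogenesis regulators that the fit called. Esrra, a nuclear receptor that works with PGC-1alpha, had 5.90 and 6.10 at 2 h and 5.85 and 6.79 at 16 h, with an adjusted p of 0.325 by limma. Tfam, which packages and helps transcribe mitochondrial DNA, had 8.05 and 7.83, then 7.89 and 7.32. Nrf1 had differences of 0.12 and -0.33, and Gabpa -0.42 and -0.30. The median over the 12 was -0.23 at 2 h and -0.15 at 16 h, on the other side of 0 from Ppargc1a.

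**Figure D4:**
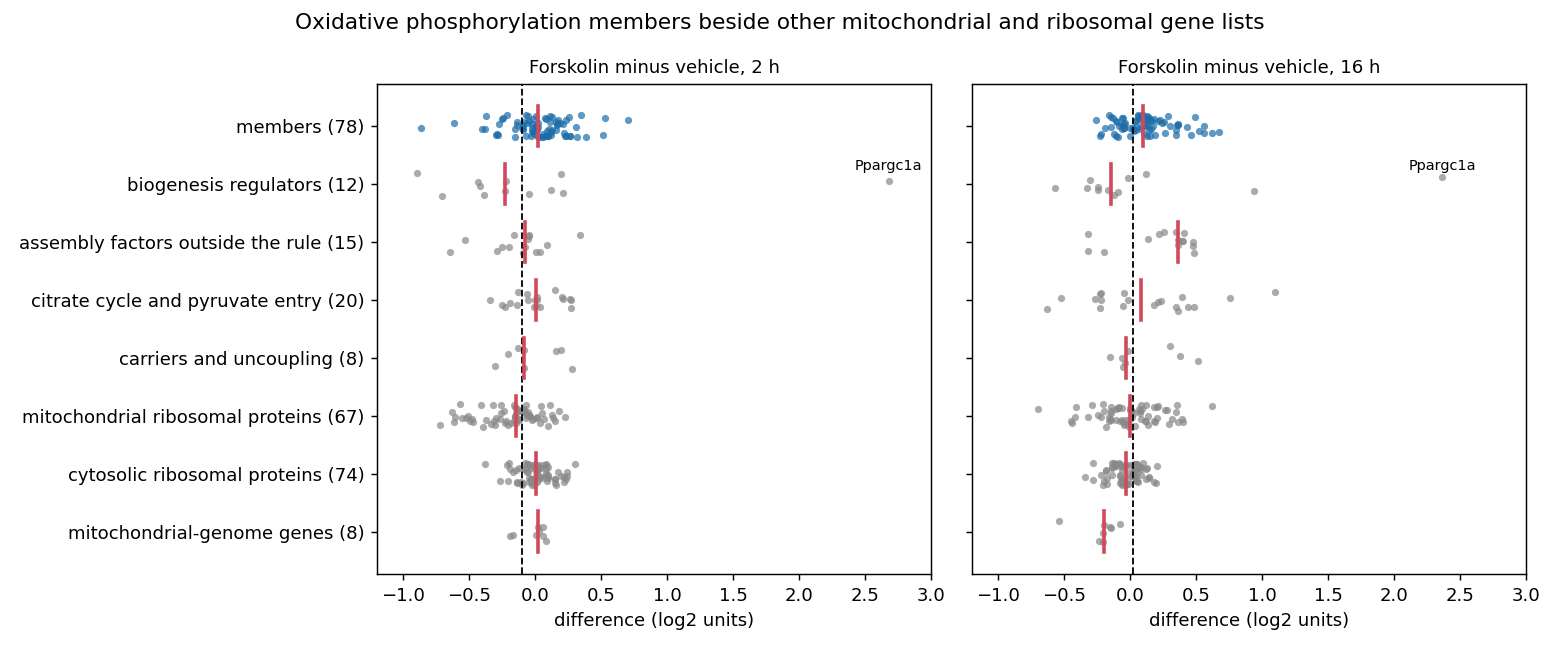
Forskolin minus vehicle in log2 units at 2 h and 16 h for the kept oxidative phosphorylation members (blue) and for other gene lists (grey), 1 point per gene, with the number of genes in brackets, red bars at list medians and a dashed line at the median of all kept genes. Ppargc1a stands at 2.68 and 2.37, while the members' medians are 0.02 and 0.10.

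Promoters are shown for 6 genes, to set the called regulator beside 3 members with an unadjusted p below 0.05 for forskolin (Ndufa5, Atp5g1 and Uqcrc1) and 2 without (Cox8a and Ndufa10). They come from RefSeq on the rat build GRCr8, run 5′ to 3′ along the gene's strand, and hold the 250 bases before the annotated start. The genes were picked after their values were seen, and every one shown holds a marked match. Of the other members with an unadjusted p below 0.05 by limma, Ndufa3 holds the 5-base core, starting 185 bases before the start. Atp5d and Ndufs4 hold no match in these 250 bases. The genes shown therefore do not tell how often the motifs occur among such members. Capitals mark matches to the cyclic AMP response element TGACGTCA, to its 5-base core TGACG or CGTCA, to the ETS motif CCGGAAG bound by GABPA or its reverse, and to the NRF1 motif GCGCATGC or its reverse. The full element contains both forms of the core, and both strands were searched.
Ppargc1a: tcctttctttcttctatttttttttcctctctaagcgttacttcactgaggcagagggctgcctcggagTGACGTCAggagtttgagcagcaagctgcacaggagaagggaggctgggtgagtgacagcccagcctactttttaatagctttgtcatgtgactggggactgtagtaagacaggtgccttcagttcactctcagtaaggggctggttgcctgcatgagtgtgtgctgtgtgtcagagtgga
Ndufa5: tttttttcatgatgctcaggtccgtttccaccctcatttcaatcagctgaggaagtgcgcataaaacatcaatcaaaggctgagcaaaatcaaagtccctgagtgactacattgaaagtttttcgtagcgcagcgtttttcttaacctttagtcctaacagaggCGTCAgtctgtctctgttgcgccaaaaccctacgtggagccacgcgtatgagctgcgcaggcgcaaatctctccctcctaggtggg
Atp5g1: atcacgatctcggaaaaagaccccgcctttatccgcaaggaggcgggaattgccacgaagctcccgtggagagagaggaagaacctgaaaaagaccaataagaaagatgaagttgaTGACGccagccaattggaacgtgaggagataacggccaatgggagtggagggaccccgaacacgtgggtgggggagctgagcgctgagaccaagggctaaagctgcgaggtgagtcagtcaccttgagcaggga
Uqcrc1: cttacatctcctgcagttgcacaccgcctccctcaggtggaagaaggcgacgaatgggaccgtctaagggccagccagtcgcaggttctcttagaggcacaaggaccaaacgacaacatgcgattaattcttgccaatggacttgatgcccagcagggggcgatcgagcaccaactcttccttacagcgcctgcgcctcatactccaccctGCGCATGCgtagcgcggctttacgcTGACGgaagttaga
Cox8a: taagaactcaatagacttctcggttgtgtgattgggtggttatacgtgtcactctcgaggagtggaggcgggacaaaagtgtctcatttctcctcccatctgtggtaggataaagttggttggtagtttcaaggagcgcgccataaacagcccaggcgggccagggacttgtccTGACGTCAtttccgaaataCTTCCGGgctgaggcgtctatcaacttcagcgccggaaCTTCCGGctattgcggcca
Ndufa10: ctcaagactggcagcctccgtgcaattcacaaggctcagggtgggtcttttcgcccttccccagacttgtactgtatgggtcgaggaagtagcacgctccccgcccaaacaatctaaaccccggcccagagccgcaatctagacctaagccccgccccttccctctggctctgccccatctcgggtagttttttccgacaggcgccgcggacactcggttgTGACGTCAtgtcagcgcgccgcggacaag
Ppargc1a, on chr14:63634058-63634307 of the plus strand, holds the full element, starting 181 bases before the start. Ndufa5 (chr4:53971236-53971485, minus strand) and Atp5g1 (chr10:81523346-81523595, minus strand) hold the 5-base core once each, starting 86 and 134 bases before it, and Uqcrc1 (chr8:118467973-118468222, plus strand) the 5-base core 14 bases and an NRF1 motif 39 bases before it. Cox8a (chr1:213833624-213833873, minus strand) and Ndufa10 (chr9:100489265-100489514, minus strand) hold the full element 76 and 29 bases before the start, with 2 ETS matches in Cox8a. Cox8a had forskolin differences of 0.00 and 0.21, and Ndufa10 of -0.09 and 0.03.

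Of the 86 members, 74 were matched to a promoter by symbol or identifier. Over a window of 250 bases before to 50 after the start, the full element was found in 4 of the 74 (5.4%), Cox8a, Ndufa10, Ndufb2 and Sdhb, and in 1.9% of 27457 promoters of the genome. None of these 4 reached 1.5-fold at either time. The 5-base core was found in 45.9% of the members and 22.0% of all promoters, the ETS motif in 28.4% and 9.2%, and the NRF1 motif in 13.5% and 2.7%. These shares were not matched for base composition. In Atp5d the 5-base core begins 27 bases past the start, and the Ndufs4 and Ndufb10 windows held none of these letters.

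Other mitochondrial genes were read from further lists. Cytochrome c itself, Cycs, had signals of 11.17 and 11.46 at 2 h and 11.18 and 11.48 at 16 h, both forskolin arrays above both vehicle arrays, with an adjusted p of 0.205 by limma. Assembly factors outside the symbol rule had a median of -0.08 at 2 h and 0.36 at 16 h, and 12 of 15 were above 0 at 16 h, among them Foxred1 for complex I (0.48), Cox11 for complex IV (0.48) and Atpaf2 for complex V (0.48). The 20 citrate cycle and pyruvate genes had medians of 0.00 and 0.08. Sucla2, a subunit of succinyl-CoA synthetase, had 9.27 and 9.54, then 9.22 and 10.32, the highest 16 h difference of that list (2.14-fold), and Pdha1, of pyruvate dehydrogenase, had 9.03 and 9.31, then 8.96 and 9.72. The 8 carriers and uncoupling genes had medians of -0.09 and -0.03, the 67 mitochondrial ribosomal protein genes -0.15 and, to 2 decimals, -0.00, and the 74 cytosolic ribosomal protein genes 0.00 and -0.03. The 2 h medians of the assembly factors and of the carriers turned above 0 with median centring, and that of the mitochondrial ribosomal protein genes was -0.05, -0.01 and -0.04 with further quantile normalization, cyclic loess and median centring. None of the genes in these lists was called by the limma fit, whose smallest adjusted p among them was 0.154, for Sucla2.

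The array also names 8 genes of the mitochondrial genome, which encode partners of the nuclear subunits: ND1, ND2, ND4L, ND5 and ND6 of complex I, COX1 and COX2 of complex IV and ATP8 of complex V. They were added after values had been seen. At 2 h their forskolin differences ran from -0.19 to 0.08 with a median of 0.02, whose sign turned with further quantile normalization. At 16 h all 8 were lower with forskolin, by a median of -0.20 and between -0.54 for ND6 and -0.07 for ATP8, where 52.7% of all kept genes were above 0. Between the vehicle arrays all 8 were higher at 16 h, by a median of 0.29, where 37.1% of all kept genes were above 0. These last 2 comparisons share the 16 h vehicle array. ND6 had 9.73 with vehicle and 9.74 with forskolin at 2 h, and 10.33 and 9.80 at 16 h, so the 16 h vehicle array stood above the other 3. The same was seen for COX1, with 13.14 and 13.20, then 13.39 and 13.25. The smallest adjusted p of the 8 for forskolin over both times was 0.281 by limma, for ND5.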

How the data were processed

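RNA was hybridised to 4 Affymetrix rat Gene 1.0 ST arrays, 1 per group. The deposited values are log2 signals per probe set, made by the authors with gene-level RMA (background correction, quantile normalization, summary) per the file headers, in Affymetrix Expression Console 1.1.1 per the submitters' processing notes. Gene names are those deposited, with current symbols from the RefSeq table of GRCr8; of 29214 probe sets 20411 had 1 symbol, and 20 members have a new one. Arrays give no count depth, and their number limits the precision. Differences and the filter were computed from the deposited values in Python 3.11.15 with pandas 2.3.3. The fit used limma 3.58.1 (lmFit, eBayes with trend) in R 4.3.3, with additive treatment and time terms, a threshold of 0.05 on adjusted p, and prior degrees of freedom of 8.14; it was tested on simulated data. With 1 array per group, p-values rest on the spread left by the additive model, and a response that differs between times counts as error. Named genes were the 3 highest and lowest kept members of each comparison, the member with the highest mean signal of each complex, tissue isoforms, core subunits and called members; 1 core subunit is not reported here by name. The members and lists were chosen with earlier results of these data known, and kinases, a binding protein and a pseudogene with Rps symbols were left out of the cytosolic ribosomal list after its values were seen. Alternatives were other filters, scalings, probe-set rules, member sets and priors.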

Additional observations from a re-analysis of the deposited data

Results flagged for a closer look

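Of the 78 members 29 had opposite signs at 2 h and 16 h, a share close to that of all kept genes (3697 of 9333). Given here are those past 1.5-fold at either time, with the complexes and lists whose medians turned, and no difference between times was tested, since each group has 1 array. Ndufaf1 had a forskolin difference of -0.86 at 2 h and 0.05 at 16 h, 0.91 apart. Ndufb10 had -0.62 and 0.15, 0.77 apart. The complex II median was -0.06 and 0.09, 0.15 apart, and turned positive at 2 h (0.05) with median centring. The complex IV median was below 0 by less than 0.01 at 2 h and 0.10 at 16 h, 0.1 apart, and was above 0 at 2 h with cyclic loess and median centring. The median of the assembly factors outside the symbol rule was -0.08 and 0.36, 0.44 apart, and was above 0 at both times with cyclic loess and median centring. That of the cytosolic ribosomal protein genes was 0.00 and -0.03, a step of -0.03. That of the 8 mitochondrial-genome genes was 0.02 and -0.20.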

How the results depend on the processing

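No paired analysis by replicate number was possible because each group has 1 array; the additive fit already sets forskolin against vehicle of the same time. Leaving out an array leaves no residual degrees of freedom. Of 165 alternative values, 151 kept their direction and their side of the threshold or stayed close to the reported value. Part of this count was fixed in advance. The structural subunits and the members with 1 probe set use the main fit, so their single-gene values and calls could not change. A second deposited copy of the values differed from the first by at most 5e-05. An adjusted p that rose further above the threshold also counted as kept. With a 2-fold threshold the 3 counts of members were 0, 0 and 0. Scaling moved the 2 h median to 0.09 (cyclic loess) and 0.13 (median centring), the vehicle time median to 0.21 (median centring), the 16 h count to 1 (further quantile normalization), and the vehicle count to 0 (further quantile normalization) and 2 (median centring). That count was also 0 with the mean of probe sets and, an alternative chosen after seeing the data, with members that have 1 probe set. Matching by current symbols gave 82 kept members and 5 past 1.5-fold at 2 h, with Ndufaf5 (0.63) and Ndufaf6 (-0.65) added. With the stricter filter 1 member was called, Atp5d (0.48, adjusted p 0.0433 by limma). No other alternative called Atp5d, and its adjusted p by limma rose as high as 0.349, with no trend in the prior. The stricter filter left 6222 genes, and the fit with its prior was rerun on them. The number of genes called for forskolin in all was 116, against 22 with no filter, 214 with the stricter one, 28 with further quantile normalization, 3 with cyclic loess, 68 with median centring and 45 with no trend in the prior. The cause of these shifts was not tested.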

Other observations

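Matching by current symbols added 7 genes that the deposited spelling hides. Atp5if1, the inhibitor of the ATP synthase, had log2 signals of 11.64 with vehicle and 11.34 with forskolin at 2 h, and 11.31 and 11.29 at 16 h, so the 2 h vehicle array stood above the other 3. Cox6b1, the common form of that complex IV subunit, had 10.36 and 10.31, then 10.26 and 10.56. The complex I assembly factors Ndufaf5 and Ndufaf6 lay on opposite sides at 2 h: Ndufaf5 had 5.81 and 6.43, then 5.99 and 6.20, and Ndufaf6 had 5.69 and 5.04, then 5.40 and 5.18. The limma fit called neither, with adjusted p-values of 0.441 and 0.484.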
